A study of Mus musculus with 21 samples.

Results

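The genes that mark the steps of the oligodendrocyte lineage were followed in bulk RNAseq data from the neocortex of rNLS8 mice and their wild-type littermates. They were found by symbol in the table of read counts, where they take 10 of 48474 rows. Pdgfra and Cspg4 stand for oligodendrocyte precursors, Gpr17, Bcas1 and Enpp6 for committed and newly formed cells, Myrf and Mobp for myelinating cells, and Sox10, Olig1 and Olig2 for the transcription factors that all of these stages share. All 10 rows passed the filter on low counts. The wild-type group (labelled WT) held 11 libraries and the rNLS8 group (labelled TG) held 10, 1 per mouse. Each group was spread over 2 independent cohorts called batch A (4 wild-type and 3 rNLS8 mice) and batch B (7 of each). rNLS8 mice carry a tetracycline transactivator under the neurofilament heavy chain promoter (NEFH-tTA) and a tetO-driven human TDP-43ΔNLS, a TDP-43 without its nuclear localization signal, and the promoter is known to act in neurons and hardly in oligodendrocytes. Controls were littermates with only 1 of these transgenes, grouped in the labels as wild type. Every mouse, controls included, was 17 to 19 weeks old when 350 µg of a control antisense oligonucleotide without a target was given in 10 µL into the cerebral ventricles. Doxycycline in the chow (200 mg/kg) kept the transgene silent until 2 weeks after the injection, and the tissue was taken 3 weeks after its removal. The sex of the mice was not given in the labels.

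Oligodendrocytes form myelin, the lipid-rich sheath that insulates axons, and arise from precursors that keep dividing in the adult cortex. Precursors respond to platelet-derived growth factor through the receptor Pdgfra and display the proteoglycan Cspg4, known as NG2. On leaving the cell cycle they pass briefly through a committed state marked by the receptor Gpr17, then form new oligodendrocytes with Bcas1 and Enpp6, and finally switch on the myelin genes under the transcription factor Myrf. Sox10, Olig1 and Olig2 are present along the whole course.

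The libraries held between 20700912 and 22263809 counts, so depth was nearly even. Of 19052 genes tested with genotype and batch in the model, 8303 passed an adjusted p of 0.05, which is 43.6% of all genes. The human transgene is not a row of this mouse table, yet reads counted to Tardbp were higher in rNLS8 mice, between 2362 and 5054 normalized counts against 2254 to 2829 in wild-type mice (log2 fold change 0.61, SE 0.07, adjusted p = 1.54e-07). The difference was uneven between the batches. In batch A the 3 rNLS8 mice stood at 2362 to 3084 against 2254 to 2646 in controls (log2 fold change 0.26, SE 0.12, adjusted p = 0.191), with the mouse T61340 lowest, and in batch B at 4403 to 5054 against 2510 to 2829 without overlap (0.79, SE 0.04, adjusted p = 1.42e-10). The interaction with batch was 0.57 (SE 0.10, unadjusted p = 6.44e-06), which did not pass over all genes with edgeR (adjusted p = 0.126) and passed with DESeq2 (adjusted p = 3.38e-04). Its part in the differences between batches given for the lineage genes was not tested. The libraries of T61340 and T61342, both among the 3 rNLS8 mice of batch A, stood apart at opposite ends in how the deviation of a gene from its group means went with the exonic length of the gene. The Spearman rho across 10714 genes, which are not independent replicates, was -0.56 in T61340 and 0.545 in T61342, and deviations within such a small group depend on each other. Where leaving out 1 of these libraries changed a call of a listed gene, the value without it is given. A further rNLS8 mouse of batch A, T60303, had the highest Gfap.

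Levels were compared between genes as RPKM, reads scaled to exon length and library size. In wild-type mice Mobp was the most abundant of the 10 transcripts at 122 ± 23.3 RPKM (SD, n = 11). Olig1 followed at 48.9 ± 8.21 RPKM and Bcas1 at 46.1 ± 6.41 RPKM, and their ranges overlapped. Sox10 at 13.3 RPKM, Olig2 at 11.1 RPKM, Gpr17 at 8.88 RPKM, Myrf at 6.65 RPKM and Pdgfra at 5.94 RPKM came next, each overlapping its neighbour in that order. The lowest were Cspg4 at 1.85 RPKM and Enpp6 at 1.22 RPKM, whose ranges overlapped as well. Thus the levels fell into 4 tiers without overlap, with the marker of mature myelin at the top and a marker of precursors and one of newly formed cells at the bottom.

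The bases before the start of transcription are shown for Mobp, Enpp6, Olig2 and Pdgfra, because SOX and OLIG factors are known to act on the lineage. RefSeq windows for GRCm38.p6 were found for 5 of the 10 genes, Cspg4 being the other one. Each is 250 bases on the plus strand, written 5′ to 3′, and capitals mark the letters ACAAAG or ACAATG on either strand (CTTTGT and CATTGT when read on the other strand), a short form of the SOX motif. They lie at chr9:120149492-120149741 for Mobp, chr8:46986637-46986886 for Enpp6, chr16:91225300-91225549 for Olig2 and chr5:75152001-75152250 for Pdgfra.
Mobp: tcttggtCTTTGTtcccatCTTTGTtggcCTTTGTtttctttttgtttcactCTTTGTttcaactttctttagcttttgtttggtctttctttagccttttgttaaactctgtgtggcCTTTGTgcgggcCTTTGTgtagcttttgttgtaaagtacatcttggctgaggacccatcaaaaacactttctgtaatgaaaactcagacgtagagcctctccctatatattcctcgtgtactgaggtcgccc
Enpp6: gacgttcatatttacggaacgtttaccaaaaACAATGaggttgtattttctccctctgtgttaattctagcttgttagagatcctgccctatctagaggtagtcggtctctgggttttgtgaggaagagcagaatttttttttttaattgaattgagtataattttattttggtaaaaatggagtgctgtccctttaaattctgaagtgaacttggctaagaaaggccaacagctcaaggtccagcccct
Olig2: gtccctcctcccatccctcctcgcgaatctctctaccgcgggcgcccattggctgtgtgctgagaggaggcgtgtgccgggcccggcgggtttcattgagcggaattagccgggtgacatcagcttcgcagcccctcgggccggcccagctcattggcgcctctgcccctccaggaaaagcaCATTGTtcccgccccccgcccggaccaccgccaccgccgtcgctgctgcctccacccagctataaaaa
Pdgfra: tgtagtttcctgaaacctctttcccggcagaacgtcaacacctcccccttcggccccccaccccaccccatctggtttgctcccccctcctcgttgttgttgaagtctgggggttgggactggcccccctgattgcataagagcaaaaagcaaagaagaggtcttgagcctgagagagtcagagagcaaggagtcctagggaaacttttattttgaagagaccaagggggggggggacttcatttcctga
The Mobp window held 6 such matches, the Enpp6 and Olig2 windows 1 each, and the Pdgfra window 0. Of 32851 windows of this length, 25.2% held at least 1 match, and the Mobp window was the only 1 with 6 or more, a number chosen after the matches had been counted. The letters CAGATG or CATATG on either strand, forms of the E-box that basic helix-loop-helix factors bind, occurred 1 time in the Pdgfra window and in 17.3% of all windows. A match is a description of the letters and not a bound site. The windows of Enpp6 and Pdgfra lie at a start other than the outermost one of the gene.

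Of the 10 lineage genes, 1 differed between genotypes, Gpr17, which rose, against 43.6% of all genes in either direction and 22.4% in its own. The median log2 fold change of the 10 was 0.02, next to a median of -0.0019 over all genes tested. In bulk tissue, fewer cells of a type and less RNA per cell cannot be told apart. p-values come from edgeR's quasi-likelihood test, adjusted over all genes tested, and set the difference between genotypes against the spread between mice.

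**Figure D1:**
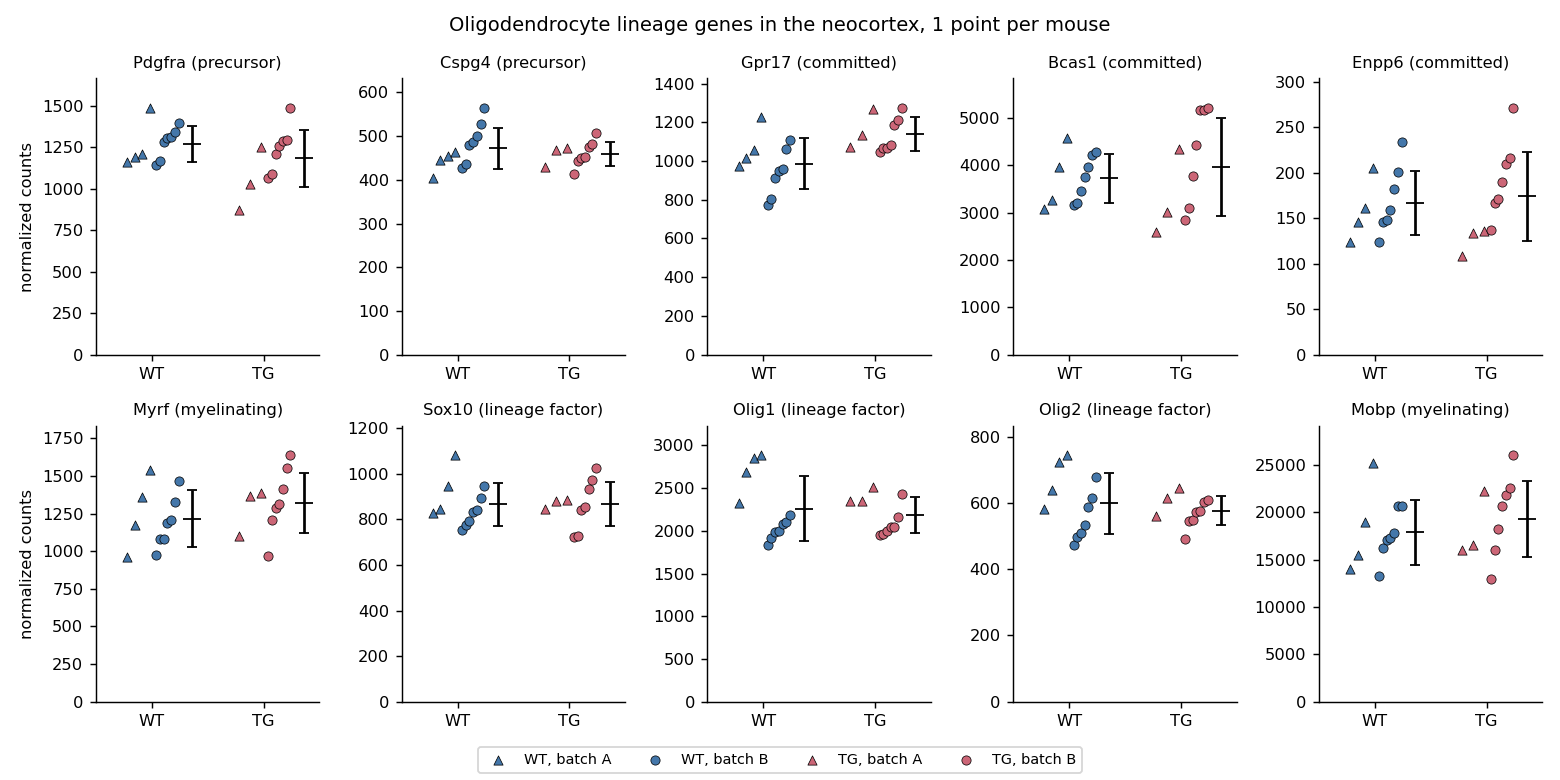
Normalized counts of the 10 lineage genes (vertical axis, from 0) in wild-type (WT, blue) and rNLS8 (TG, red) mice, 1 point per mouse, triangles for batch A and circles for batch B, with bars for mean ± SD over both batches. The ranges of the groups overlap for every gene, and Gpr17 is the gene whose 10 rNLS8 values all lie above the wild-type median of 973.

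Pdgfra, the receptor through which precursors are driven to divide, lies at chr5:75151322-75198206 and was counted over 27 exon blocks of 10024 bp. It ran from 1141 to 1485 normalized counts in wild-type mice with a median of 1278, and from 871 to 1485 in rNLS8 mice with a median of 1227. Of the 10 rNLS8 values 5 lay inside the wild-type range and 4 were below every wild-type value. The log2 fold change was -0.12 (SE 0.07, 95% interval -0.26 to 0.02, adjusted p = 0.179). The lowest value of all belonged to T61340, and without this mouse the log2 fold change was -0.07 (adjusted p = 0.365), while without T61342 it was -0.14 (adjusted p = 0.111). Pdgfra also marks fibroblasts of the vessel wall and meninges, so their markers were read beside it. Over the 7 fibroblast markers, edgeR called 0 genes, 0 at an unadjusted p under 0.05, and DESeq2 called 0, against 43.6% of all genes called by edgeR, and their summed level was 2653 to 8636 in wild-type and 2814 to 5119 normalized counts in rNLS8 mice. Among them Dcn, a small matrix proteoglycan, gave a log2 fold change of 0.05 (adjusted p = 0.845).

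Cspg4 codes for the NG2 proteoglycan of precursors (chr9:56865104-56899870, 10 exon blocks). It ran from 404 to 564 normalized counts in wild-type mice with a median of 464, and from 413 to 507 in rNLS8 mice with a median of 461. The rNLS8 values sat wholly within the wild-type range, and the log2 fold change of -0.04 had a narrow interval from -0.15 to 0.07 (SE 0.05, adjusted p = 0.547). Pericytes carry Cspg4 too. Of 7 markers of pericytes and smooth muscle, 1 fell, against 21.2% of all genes, Rgs5 (-0.11 on the log2 scale, SE 0.05, adjusted p = 0.0495), a call that held in 5 of 21 fits that left out 1 mouse. Pdgfrb, the receptor of pericytes for platelet-derived growth factor, gave -0.08 (adjusted p = 0.262).

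Deviations of Pdgfra from its genotype and batch means went with the length relation of the library described above. Across the 21 mice Pearson's r was 0.646 (permutation p = 0.00175, adjusted p = 0.0175 over the 10 genes) and Spearman's rho was 0.583 (permutation p = 0.00704, adjusted p = 0.0672). The permutations treated the deviations of all 21 mice as exchangeable, though those within a genotype and batch depend on each other. Leaving out the 2 libraries farthest from the median left r at 0.472, and within genotypes it was 0.375 for wild-type and 0.752 for rNLS8 mice. Enpp6 gave an r of 0.511 (permutation p = 0.0174, adjusted p = 0.0869), and the other 8 genes lay between -0.0738 and 0.317. The part of this library property in the Pdgfra values was not tested.

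**Figure D2:**
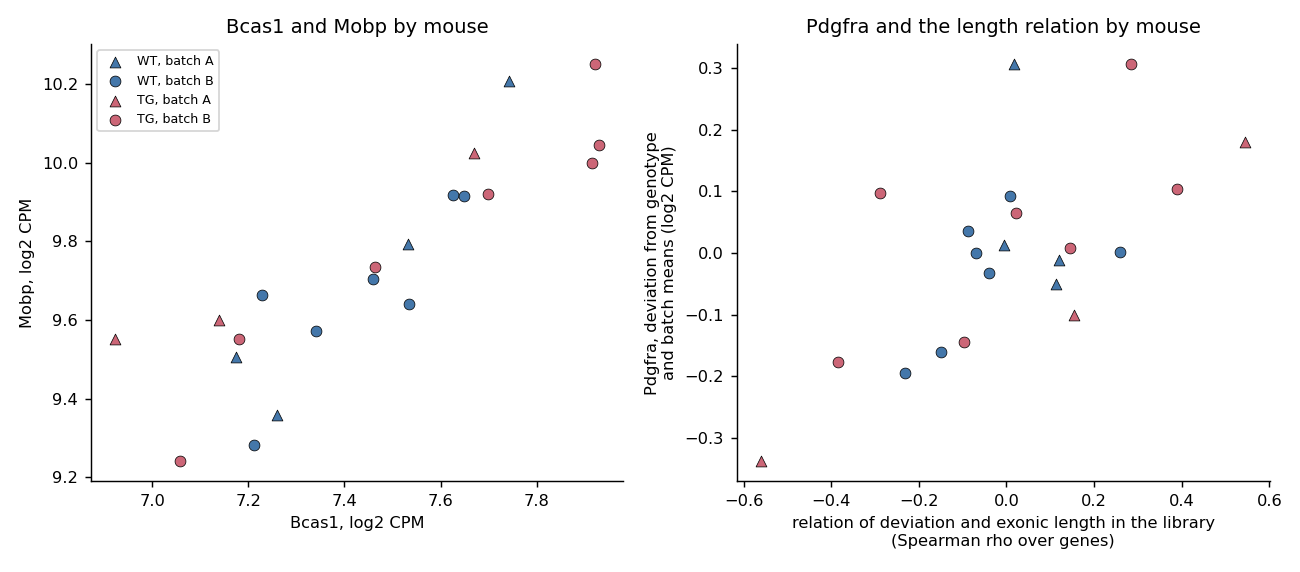
Left, log2 CPM (counts scaled to library size) of Bcas1 against that of Mobp. Right, the deviation of Pdgfra from its genotype and batch means (log2 CPM) against the Spearman rho of deviation and exonic length in the same library. Each point is 1 mouse, blue for wild-type and red for rNLS8, triangles for batch A. Bcas1 and Mobp lie along 1 line in both genotypes, and T61340 is the lowest point on the right at a rho of -0.56.

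Gpr17 is a G protein-coupled receptor that is switched on in committed precursors and must be switched off for them to mature. Its values were 772 at the lowest, 973 at the median and 1230 at the highest in wild-type mice (986 ± 131 normalized counts, SD, n = 11), and 1047, 1109 and 1274 in rNLS8 mice (1141 ± 88.1, SD, n = 10). All 10 rNLS8 mice were above the wild-type median and 2 were above every wild-type mouse, so the groups were shifted but overlapped. The log2 fold change was 0.22 (SE 0.06, 95% interval 0.09 to 0.35, adjusted p = 0.0062), a fold of 1.17. This is a smaller step than the median of all genes called higher, 0.33 on the log2 scale. Without T61340 it was 0.23 (adjusted p = 0.0054), without T61342 it was 0.21 (adjusted p = 0.0130), and without both T61340 and T60303 it was 0.27 (adjusted p = 0.0024).

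By batch, Gpr17 stood at 973 to 1230 in the 4 wild-type mice of batch A and 1071 to 1271 in the 3 rNLS8 mice, a log2 fold change of 0.14 (SE 0.11, adjusted p = 0.452). In batch B it stood at 772 to 1108 and 1047 to 1274 in 7 mice each, a log2 fold change of 0.27 (SE 0.07, adjusted p = 0.0077). In batch B all 7 rNLS8 mice exceeded the median of their controls and 3 exceeded all of them. The background differed as well, with 11.8% of genes called in batch A and 39.1% in batch B. A test of the difference between batches gave a log2 difference of 0.16 (SE 0.13, adjusted p = 0.888). The gene (minus strand, 2 exon blocks over 5195 bp) shares 188 bp, 3.62% of its exons, with Lims2 on the opposite strand, and the strand setting of the counts was not given in the sources used here. Lims2 itself gave a log2 fold change of 0.09 (adjusted p = 0.333) and between 174 and 296 normalized counts.

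Bcas1 marks oligodendrocytes that have just begun to myelinate (chr2:170343973-170427911, minus strand, 17 exon blocks). In wild-type mice it ran from 3082 to 4575 normalized counts with a median of 3756, and in rNLS8 mice from 2588 to 5209 with a median of 4059. The rNLS8 mice lay on both sides of the controls, 3 of 10 above every wild-type mouse and 3 below, and their coefficient of variation was 26.2% against 13.9%. The difference in spread was not tested. The log2 fold change was 0.07 (SE 0.12, 95% interval -0.17 to 0.32, adjusted p = 0.652). It was -0.14 in batch A (adjusted p = 0.682) and 0.18 in batch B (adjusted p = 0.285). Of the antisense gene Bcas1os2, 34 bp overlap its exons, and the table gave it a mean of 27.9 normalized counts in wild-type mice. Annotated genes on the opposite strand that have no row of their own overlap the exons of Bcas1 by 440 bp, of Pdgfra by up to 456 bp and of Olig1 by 157 bp.

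Enpp6, a choline phosphodiesterase that appears in newly formed oligodendrocytes within the first steps of their differentiation, had the fewest reads of the 10 (chr8:46939197-47096762, 8 exon blocks). It ran from 124 to 234 normalized counts in wild-type mice with a median of 159, and from 109 to 271 in rNLS8 mice with a median of 169. Here too the rNLS8 range enclosed that of the controls. The log2 fold change was 0.03 (SE 0.13, 95% interval -0.24 to 0.30, adjusted p = 0.889). In batch A the 3 rNLS8 mice stood at 109 to 136 against 124 to 206 in 4 controls, a log2 fold change of -0.31 (adjusted p = 0.320), and in batch B the value was 0.19 (adjusted p = 0.348). Without T61340 the pooled estimate was 0.08 (adjusted p = 0.655). The point estimates of the batches had opposite signs. Their difference of 0.53 (SE 0.26) had an unadjusted p of 0.0551 and an adjusted p of 0.870.

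Myrf, the membrane-bound transcription factor that cleaves itself and then drives the myelin genes, lies at chr19:10208271-10240777 (minus strand, 26 exon blocks). It ran from 960 to 1540 normalized counts in wild-type mice with a median of 1185, and from 969 to 1638 in rNLS8 mice with a median of 1340. Of 10 rNLS8 mice 8 were above the wild-type median, yet the ranges nearly coincided. The log2 fold change was 0.12 (SE 0.09, 95% interval -0.06 to 0.31, adjusted p = 0.288).

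Mobp, a small basic protein of compact myelin in the central nervous system, lies at chr9:120149742-120181488, directly behind the window shown above, and was counted over 8 exon blocks of 6849 bp. It ran from 13288 to 25251 normalized counts in wild-type mice with a median of 17320, and from 12913 to 26038 in rNLS8 mice with a median of 19446. The extremes of the rNLS8 mice lay just outside those of the controls on both ends. The log2 fold change was 0.11 (SE 0.11, 95% interval -0.13 to 0.35, adjusted p = 0.474). In batch A it was 0.01 (SE 0.20) and in batch B 0.16 (SE 0.13).

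**Figure D3:**
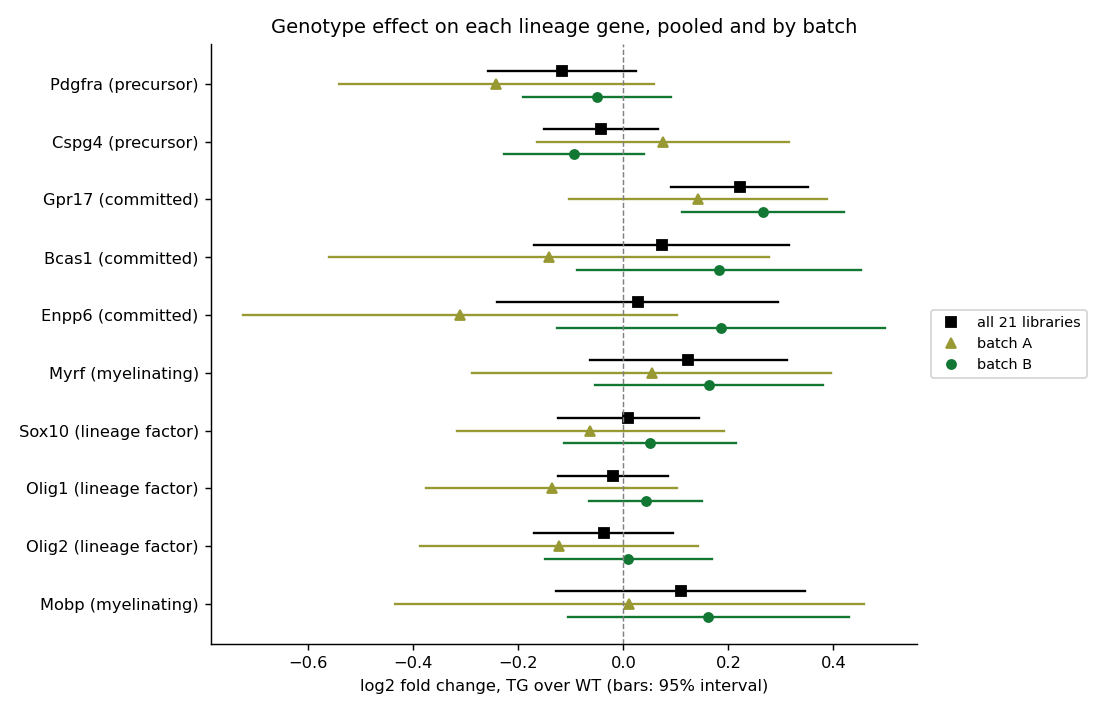
Log2 fold change of rNLS8 (TG) over wild-type (WT) mice for each lineage gene (horizontal axis) with 95% intervals, for all 21 libraries (black), batch A (olive) and batch B (green). The pooled and batch B intervals of Gpr17 lie above 0, and the other intervals include 0.

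The factors shared by all stages were close to their control levels. Sox10, the SOX factor that the lineage needs for terminal differentiation (chr15:79154913-79164490), ran from 753 to 1082 normalized counts in wild-type mice with a median of 840 and from 721 to 1024 in rNLS8 mice with a median of 868. Its log2 fold change of 0.01 had a 95% interval from -0.12 to 0.14 (SE 0.06, adjusted p = 0.923). The basic helix-loop-helix genes Olig2 (chr16:91225550-91228677) and Olig1 (chr16:91269769-91271939) are neighbours separated by 41091 bp. Olig2, which specifies the lineage, ran from 473 to 744 with a median of 587 in wild-type mice and from 490 to 645 with a median of 574 in rNLS8 mice (log2 fold change -0.04, SE 0.06, adjusted p = 0.673). Olig1, which serves maturation and repair, ran from 1833 to 2887 with a median of 2109 and from 1946 to 2515 with a median of 2105, respectively (log2 fold change -0.02, SE 0.05, adjusted p = 0.784). For both Olig genes all rNLS8 values fell within the wild-type range.

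Both Olig genes differed between the batches. All 4 wild-type mice of batch A had more Olig1 (2322 to 2887 normalized counts) than any of the 7 of batch B (1833 to 2181), and the log2 difference of batch B from batch A with genotype in the model was -0.32 (SE 0.05, adjusted p = 1.87e-04). For Olig2 it was -0.20 (SE 0.07, adjusted p = 0.0364). Thus 2 of the 10 genes differed between batches, against 22.6% of all genes in that comparison, and both were lower in batch B. The nearest of the others was Enpp6 at 0.33 (SE 0.14, adjusted p = 0.0910). Whether the genotype effect depended on batch was tested by an interaction term, with which edgeR called 0 of 19537 genes (0%), against 1095 at an unadjusted p under 0.05 and 1 gene called by DESeq2, which was Tardbp. None of the 10 passed. Olig1 had the smallest unadjusted p among them at 0.0449 (log2 difference 0.21, SE 0.10, adjusted p = 0.870).

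The stages were also set against each other within each mouse. The log2 ratio of the summed myelinating to the summed committed counts averaged 1.96 in the 11 wild-type mice (SD 0.13) and 1.97 in the 10 rNLS8 mice (SD 0.12). That of committed to precursor counts was 1.48 ± 0.20 and 1.67 ± 0.33, that of myelinating to precursor counts 3.44 ± 0.28 and 3.63 ± 0.35, and that of myelinating to the shared factors 2.35 ± 0.25 and 2.49 ± 0.26. These last 3 ratios were higher on average in rNLS8 mice by less than 1 SD of the controls over both batches. In batch B alone the ratio of committed to precursor counts was 1.45 ± 0.17 and 1.69 ± 0.34, a wider step than the SD of the controls, and that of myelinating to precursor counts 3.40 ± 0.20 and 3.61 ± 0.38, also wider. In batch A these ratios were 1.54 ± 0.26 and 1.60 ± 0.36, and 3.50 ± 0.42 and 3.69 ± 0.34, steps within that SD. With the mean log2 CPM of the genes of a stage in place of sums, committed minus precursor was 0.12 ± 0.14 and 0.30 ± 0.24 over both batches and 0.08 ± 0.16 and 0.36 ± 0.26 in batch B, again wider than that SD, but 0.19 ± 0.09 and 0.18 ± 0.18 in batch A, and the ranges overlapped. On this scale myelinating minus precursor was 2.52 ± 0.20 and 2.75 ± 0.34 in batch B, also wider. The ratio of summed myelinating to committed counts went in opposite directions, with 1.97 ± 0.20 and 2.09 ± 0.03 in batch A. In batch B it was 1.95 ± 0.10 and 1.91 ± 0.10. No test was made of these ratios. These sums rest mostly on 1 gene per stage, since Bcas1 made 64.8% to 81.0% of the committed sum and Mobp 91.0% to 94.9% of the myelinating sum.

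Some of the genes varied together between mice of 1 genotype. Among 45 pairs in wild-type mice, 2 passed an adjusted p of 0.05 for Pearson's r of log2 CPM. Bcas1 and Mobp had an r of 0.887 (permutation p = 0.00014, adjusted p = 0.0063) and a Spearman rho of 0.855 (permutation p = 0.00138, adjusted p = 0.0576). Myrf and Sox10 had an r of 0.828 (permutation p = 0.00104, adjusted p = 0.0234) and a rho of 0.818 (permutation p = 0.00302, adjusted p = 0.0576). So a wild-type mouse with more Bcas1 tended to have more Mobp. The other committed genes gave lower values with Mobp, 0.032 for Gpr17 and 0.397 for Enpp6, and neither passed. Their values in rNLS8 mice were -0.016 and 0.615, and neither passed there. In rNLS8 mice 1 of 45 pairs passed, again Bcas1 and Mobp, with an r of 0.914 (permutation p = 0.00032, adjusted p = 0.0144) and a rho of 0.891 (permutation p = 0.0012, adjusted p = 0.0540), while Myrf and Sox10 reached 0.807 (adjusted p = 0.0771). Without the 2 mice farthest from the median, r for Bcas1 and Mobp was 0.859 in wild-type and 0.934 in rNLS8 mice, and within batch B it was 0.830 and 0.957 (n = 7 each). The corresponding values for Myrf and Sox10 in wild-type mice were 0.659 and 0.807.

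The precursor genes did not form such a pair. Pdgfra and Cspg4 had an r of 0.315 in wild-type (permutation p = 0.343, adjusted p = 0.571) and 0.206 in rNLS8 mice (permutation p = 0.571, adjusted p = 0.829), with rho values of 0.427 and 0.212. The neighbours Olig1 and Olig2 reached 0.798 (adjusted p = 0.0603) and 0.608 (adjusted p = 0.224). No pair was tested for a difference between genotypes.

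**Figure D4:**
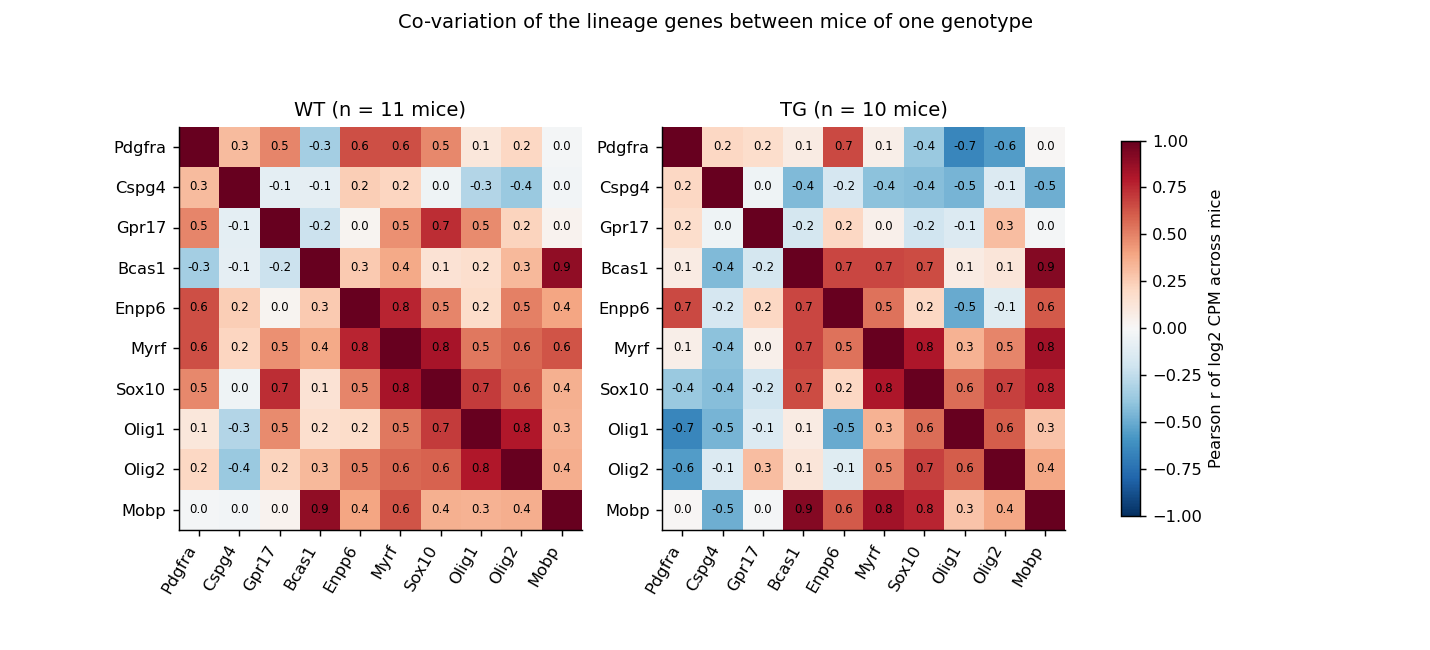
Pearson r of log2 CPM between the lineage genes across 11 wild-type (WT, left) and 10 rNLS8 (TG, right) mice, red for positive and blue for negative. Bcas1 with Mobp is the darkest pair in both panels (0.887 and 0.914).

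The genes most like 1 marker of each stage were then sought among all tested genes, by Pearson's r of log2 CPM over the 21 libraries after removal of genotype and batch means. For Mobp they were Plekhb1 (r = 0.93), Prr18 (0.922), Mbp (0.92), Mal (0.918) and Gatm (0.913), among which Mbp is the basic protein of compact myelin and Mal a proteolipid of myelin, and Bcas1 came at rank 7 (0.902). For Enpp6 they were Anln (0.879), Nfe2l3 (0.872), Gpr37 (0.86), Dock5 (0.854) and Tspan2 (0.847). For Pdgfra they were Cyb5b (0.946), Slit2 (0.931), Lsamp (0.924), Ubxn7 (0.909) and Tmx4 (0.909), and Cspg4 came at rank 6909 with an r of 0.121. The list for Mobp thus held known myelin genes, while that for Pdgfra held no gene of the precursor list. All of these values share the libraries and their depth. The deviations of Pdgfra used here also went with the length relation of the library (r = 0.646). For Enpp6 that r was 0.511 and did not pass. The part of this library property in the lists was not tested.

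Further genes of the lineage were read from lists of textbook markers, in which 5 genes stand in 2 lists each. Of 12 further precursor genes 1 rose and 3 fell, next to 22.4% of all genes higher and 21.2% lower, and their median log2 fold change was -0.03. Lhfpl3, a membrane protein of precursors, rose by 0.21 on the log2 scale (SE 0.07, adjusted p = 0.0246), from 387 to 630 normalized counts in wild-type mice to between 445 and 720, and lost the call without T61342 (adjusted p = 0.0503). Megf11, a receptor-like protein with EGF repeats, fell by 0.33 (SE 0.09, adjusted p = 0.0032). Cacng4, an auxiliary subunit of AMPA receptors, fell by 0.29 (SE 0.09, adjusted p = 0.0149). Ptprz1, a receptor phosphatase that astrocytes also make, fell by 0.27 (SE 0.08, adjusted p = 0.0085), with 4156 to 5760 normalized counts in wild-type and 2827 to 5280 in rNLS8 mice, and by 0.20 without T61340 (adjusted p = 0.0101). For each of these 4 genes the groups overlapped.

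Of 12 further genes of committed and newly formed cells, 3 rose and 1 fell, against 22.4% and 21.2% of all genes, with a median log2 fold change of -0.01. The largest step was that of 9630013A20Rik, a long non-coding RNA that marks newly formed oligodendrocytes, which rose by 1.04 on the log2 scale (SE 0.14, adjusted p = 1.31e-06). It ran from 12.9 to 25.8 normalized counts in wild-type mice and from 25.5 to 51.9 in rNLS8 mice, so the groups barely touched, and it rose in batch A (1.06, adjusted p = 0.0178) and in batch B (1.03, adjusted p = 2.41e-04). Bmp4, a bone morphogenetic protein that holds back maturation, rose by 0.34 (SE 0.11, adjusted p = 0.0180), and without both T61340 and T60303 the estimate was 0.31 (adjusted p = 0.0549). Fyn, a Src-family kinase active at the onset of myelination, rose by 0.13 (SE 0.04, adjusted p = 0.0050). Rras2, a small GTPase, fell by 0.15 (SE 0.06, adjusted p = 0.0490), a call that held in 5 of 21 fits that left out 1 mouse and not without T61340 (adjusted p = 0.0756). Neu4, a sialidase listed for precursors and for committed cells, gave 0.16 (adjusted p = 0.0530) and passed without T61340 (0.19, adjusted p = 0.0190).

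Of 20 further genes of myelinating and mature cells, edgeR called 2 lower and 0 higher, with 0 higher at an unadjusted p under 0.05 and 0 higher by DESeq2, against 22.4% of all genes higher and 21.2% lower, and the median log2 fold change was -0.01. With library size only in place of TMM, a scaling that moved the median of all genes to 0.08, 0 were called lower and 1 higher. Among the major myelin genes, those named here gave small estimates beside broad intervals. Mbp gave 0.13 (95% interval -0.08 to 0.33, adjusted p = 0.317), Mag, an adhesion molecule next to the axon, 0.09 (-0.09 to 0.27, adjusted p = 0.447), and Mog, a glycoprotein of the outer sheath, 0.04 (-0.14 to 0.22, adjusted p = 0.756). Ugt8a, the enzyme that makes the myelin lipid galactosylceramide, fell by 0.36 (SE 0.12, adjusted p = 0.0132), from 840 to 1311 normalized counts in wild-type mice to between 386 and 1122. The fall was 0.80 in batch A (adjusted p = 0.0187) and 0.15 in batch B, where it did not pass (adjusted p = 0.237). The interaction with batch was 0.68 (SE 0.21, unadjusted p = 0.0032) and did not pass (adjusted p = 0.848). Without T61340 the estimate was -0.27 (adjusted p = 0.0204), and without both T61340 and T60303 it was -0.21 (adjusted p = 0.0723). Car2, carbonic anhydrase II, fell by 0.22 (SE 0.06, adjusted p = 0.0028), and without both mice by 0.20 (adjusted p = 0.0129). Its fall was 0.38 in batch A (adjusted p = 0.0439) and 0.13 in batch B (adjusted p = 0.0808), and the interaction did not pass (adjusted p = 0.848).

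**Figure D5:**
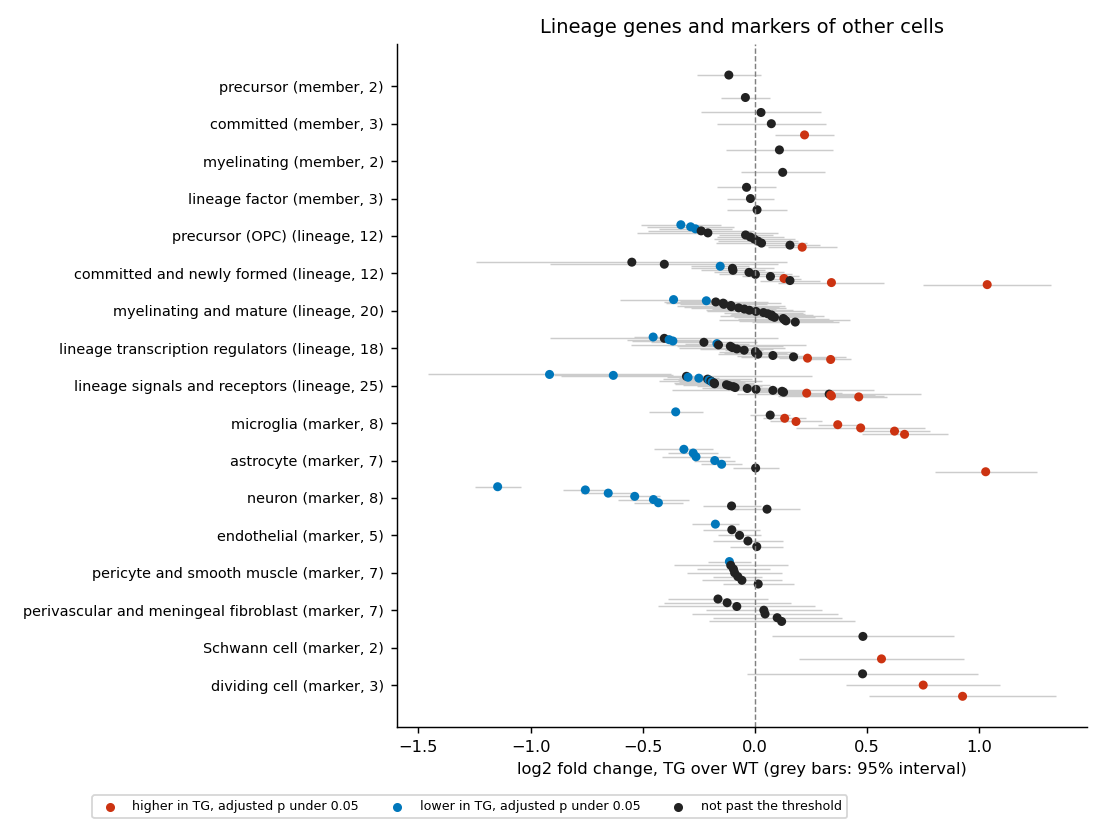
Log2 fold change of rNLS8 (TG) over wild-type (WT) mice (horizontal axis) for every tested gene of each list, with 95% intervals in grey; red and blue points passed an adjusted p of 0.05 as higher and lower, black points did not, and the number of genes stands in brackets. The 20 myelinating and mature genes hold no red point, and the neuronal markers reach -1.15.

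Of 18 transcriptional regulators of the lineage, 2 rose and 4 fell, against 22.4% and 21.2% of all genes, with a median log2 fold change of -0.09. The inhibitors of differentiation Id2 and Id4, which sequester basic helix-loop-helix factors, fell by 0.45 (SE 0.04, adjusted p = 3.63e-09) and 0.38 (SE 0.09, adjusted p = 0.0014). Id2 was without overlap, with 1859 to 2614 normalized counts in wild-type and 1452 to 1706 in rNLS8 mice. Hes5, a target of Notch signalling, fell by 0.37 (SE 0.09, adjusted p = 0.0016), and Sox8 fell by 0.17 (SE 0.07, adjusted p = 0.0483), a call that held in 6 of 21 fits that left out 1 mouse and not without T61340 (adjusted p = 0.0938) or T61342 (adjusted p = 0.0901). Yy1 and Zeb2, transcription factors that oligodendrocytes need to mature, rose by 0.34 (SE 0.04, adjusted p = 1.04e-06) and 0.23 (SE 0.06, adjusted p = 0.0033). Yy1 too was without overlap, with 1337 to 1665 and 1737 to 2203 normalized counts. The share of all tested genes without overlap is not given here. Other cell types of the cortex also express these regulators.

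Of 26 signals and receptors that act on the lineage 25 could be tested, and 4 rose and 6 fell, shares near the 22.4% and 21.2% of all genes, with a median log2 fold change of -0.12. Pdgfa, the growth factor that Pdgfra binds, fell by 0.25 (SE 0.04, adjusted p = 4.69e-05), with 552 to 667 normalized counts in wild-type and 454 to 572 in rNLS8 mice. Ligand and receptor thus differed in their calls, and the difference between them was not tested. Shh, the morphogen that induces the lineage, fell by 0.63 (SE 0.13, adjusted p = 3.05e-04), Cxcl12, a chemokine, by 0.30 (SE 0.04, adjusted p = 7.60e-06), and Lgr5, a receptor for R-spondins, by 0.92 (SE 0.26, adjusted p = 0.0064). Nrg1, a ligand of ErbB receptors that axons present, rose by 0.46 (SE 0.06, adjusted p = 1.19e-06), from 336 to 470 normalized counts in wild-type mice to between 448 and 631. Tgfb1, a cytokine of microglia among other cells, rose by 0.34 (SE 0.10, adjusted p = 0.0058), and Adgrg1, an adhesion receptor of precursors, by 0.23 (SE 0.08, adjusted p = 0.0167). Without both T61340 and T60303 the estimates were 0.25 for Tgfb1 (adjusted p = 0.0511) and 0.21 for Adgrg1 (adjusted p = 0.0532). Fgfr2, one of the remaining genes called lower, held its call in 11 of 21 fits that left out 1 mouse. It did not pass without T61340 (-0.15, adjusted p = 0.0806) or T61342 (-0.17, adjusted p = 0.0670). Igf1r, the receptor of insulin-like growth factor, passed without T61340 (0.16, adjusted p = 0.0194) and not with it (0.13, adjusted p = 0.0731).

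Markers of some other cell types, neurons, microglia and astrocytes among them, moved with genotype. All counts given here are to be read against 22.4% of all genes higher and 21.2% lower. Of 8 neuronal markers 6 fell, led by Nefl, a neurofilament subunit, at 1.15 on the log2 scale (SE 0.05, adjusted p = 1.78e-14) and Snap25, a synaptic protein, at 0.76 (SE 0.05, adjusted p = 1.33e-11), and their summed level was 201400 to 254000 normalized counts in wild-type and 141300 to 179300 in rNLS8 mice. Rbfox3, a nuclear protein of neurons, gave -0.10 (adjusted p = 0.188) and passed without T61340 (-0.17, adjusted p = 0.0066). Of 8 microglial markers 6 rose and 1 fell, among them Cd68, a lysosomal protein (0.67, SE 0.09, adjusted p = 2.58e-06), and P2ry12, a purinergic receptor of resting microglia, which fell by 0.35 (SE 0.06, adjusted p = 2.51e-05). Without both T61340 and T60303, Tmem119 (0.14, adjusted p = 0.0605), Csf1r (0.09, adjusted p = 0.123) and Aif1 (0.31, adjusted p = 0.0845) did not pass, which left 3 of the 6. The summed level of the microglial markers was 7616 to 8735 and 8064 to 11900 normalized counts. Of 7 astrocytic markers Gfap, an intermediate filament of reactive astrocytes, rose (1.03, SE 0.11, adjusted p = 4.97e-08) and 5 fell, with a summed level of 106100 to 133300 and 93970 to 118300. Of 5 markers of dividing cells edgeR tested 3 and 2 rose from low levels, Mki67, a marker of proliferation, from 19.6 ± 9.53 to 37.0 ± 8.44 normalized counts (log2 fold change 0.93, SE 0.20, adjusted p = 5.99e-04) and Top2a by 0.75 (SE 0.17, adjusted p = 6.89e-04), while Cenpf gave 0.48 (adjusted p = 0.126). DESeq2 called 3 of the 5, the same genes and Cdk1, which had too few counts for the edgeR filter (log2 fold change 1.20, adjusted p = 0.0018). Of 5 endothelial markers 1 fell, Flt1, a receptor for vascular endothelial growth factor (-0.18, SE 0.05, adjusted p = 0.0062). Of 4 Schwann cell markers 2 could be tested and 1 rose, Prx, at 8.36 to 24.4 and 14.1 to 30.6 normalized counts, and the other, Ncmap, passed without T61342 (0.59, adjusted p = 0.0122) and not with it (0.48, adjusted p = 0.0510). The part of these other cells in the values of Gpr17 and of the lineage lists was not tested.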

How the data were processed

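Poly(A) RNA from the neocortex of 21 mice was sequenced by the authors as 100 bp paired-end reads. What the authors deposited is a table of raw counts, 1 whole number for each gene symbol and mouse. The submitters' processing notes name HISAT, HISAT2, Bowtie, Bowtie2 and RSEM and the build mm10, with no role for each, and the strand setting is not given in the sources used here. Of 48474 rows, 13329 held no count, and 2553 were further copies of a symbol with 4.11% of counts. The 21 totals ran from 20700912 to 22263809.

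Counts were tested in R 4.3.3 with edgeR 4.0.16 (quasi-likelihood test, expression filter at a minimum count of 10 and total of 15 with the design, TMM, batch and genotype, Benjamini-Hochberg adjustment over 19052 genes, threshold 0.05). The study's methods name DESeq2, so DESeq2 1.42.0 was an alternative. The SE of a log2 fold change is its size over the square root of F. For normalized counts, each library was scaled to the mean TMM-adjusted size. log2 CPM used a prior count of 2, and correlations were tested with 100000 permutations. RPKM used GENCODE exon lengths for GRCm38, and positions and promoter windows were taken from annotation of GRCm38.p6 and from RefSeq. The steps were tested on simulated data.

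Members and lists were chosen with earlier results of these data known. Named were the 10 members, up to 4 genes per direction and list with the largest change among those past the threshold, Mbp, Mog, Mag, Pdgfa, Pdgfrb, Dcn and Mki67, and the 5 genes most like Pdgfra, Enpp6 and Mobp. Some genes that this rule names are not reported here, and Neu4, Igf1r, Fgfr2, Rbfox3, Cenpf, Cdk1, Ncmap, Tmem119 and Csf1r were named after their values were seen. Alternatives were other tests, covariates, normalizations, filters, single batches and leaving out each mouse. Chosen after seeing the data were a filter by genotype, leaving out both T61340 and T60303, leaving out each mouse for the lists, the comparison of batches, Tardbp by batch and the relation with the length of genes.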

Additional observations from a re-analysis of the deposited data

Results flagged for a closer look

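In 60 sets of 10 rNLS8 values (the named genes and the stage ratios), the gap of the most extreme mouse to its nearest neighbour was compared with the range of the group. Chance passes about 1 in 20 sets, and 2 passed. None of the 10 lineage genes was among them. Gfap was highest in T60303 at 12070 normalized counts, next to 8338 (gap over range 0.466). Rgs5 was highest in T_69531 at 2684 next to 2263 (0.577).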

How the results depend on the processing

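Gpr17 passed the threshold in 34 of 35 alternatives, with log2 fold changes of 0.19 to 0.25 and adjusted p of 0.0017 to 0.0136 when each mouse was left out. In batch A alone it did not pass (0.14, adjusted p = 0.452), so that 0 of the 10 genes were called there and 2195 genes over all. No other member passed in any of the 35. Estimates that did not pass changed sign in some of them, in 8 for Sox10, 6 for Enpp6, 3 for Olig1, 2 each for Cspg4 and Olig2 and 1 for Bcas1. Without normalization factors the median over all genes moved from -0.0019 to 0.08.

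Counts of list genes moved as follows. Committed genes called lower numbered 0 in place of 1 with DESeq2 (with or without batch), without batch, with Xist as a covariate, with library size only, without a filter, without copied symbols and without both T61340 and T60303, and 0 to 1 when each mouse was left out. Precursor genes called higher numbered 0 without batch (edgeR or DESeq2), 2 with library size only, upper quartile scaling, at least 10 counts in every library, without copied symbols, with the filter by genotype and without both mice, and 0 to 2 when each mouse was left out. With library size only, precursor genes called lower numbered 1 in place of 3, and myelinating genes 1 higher and 0 lower in place of 0 and 2. Without both mice, myelinating genes called lower numbered 1 signals called higher 2 in place of 4 and lower 4 in place of 6, and regulators called lower 3 in place of 4, as with DESeq2. The interaction called 1 gene with DESeq2 (Tardbp) and 0 to 1 when each mouse was left out. The causes were not tested. No paired analysis was possible because each mouse has its own number in the labels.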
